A study of Mus musculus with 24 samples.

Results

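The 10 genes described here encode enzymes that cut, process or methylate tRNAs, a ribonuclease inhibitor (Rnh1) and the Argonaute proteins that bind small RNAs. They are Ang, Rnh1, Dicer1, Ago1, Ago2, Ago3, Ago4, Elac2, Nsun2 and Trmt10c. They were taken by symbol from a table of 41549 genes measured in mouse islet cells, in which all 10 were found. The 10 also passed the filter on low counts, among 15916 genes tested. Pancreatic islet cells of wild-type mice were dissociated and transfected with 50 pmol of a control antisense oligonucleotide (ASO), called Ctr, or of an ASO against the 5′ fragment of tRNA-Glu-CTC, called αGlu. The cells then received 0.5 mM of the saturated fatty acid palmitate (PA) bound to BSA, or 0.75% BSA alone, for 48 h. This gave 24 libraries, 6 for each of the 4 groups, which are called Ctr BSA and Ctr PA with the control ASO, αGlu BSA and αGlu PA with the other. Each group has 3 libraries in batch 1 (S1 to S12) and 3 in batch 2 (S13 to S24), a term that the sample records leave undefined. The study's methods give adult mice of both sexes for primary islets, without tying an animal, a sex or an age to a library. All samples were transfected with an ASO, so no untransfected group was compared. The p-values measure the spread between libraries. The study states that the groups of a replicate shared an animal, but the labels do not say which libraries those are, so this pairing was not modelled.

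tRNAs are made as precursors whose ends are trimmed by RNase P and by the enzyme that Elac2 encodes, and many of their bases are then modified. Angiogenin, the product of Ang, is a secreted ribonuclease of the RNase A family that cuts mature tRNAs in the anticodon loop and so releases 5′ and 3′ tRNA-derived fragments. The ribonuclease inhibitor encoded by Rnh1 binds angiogenin tightly in the cytosol, methylation by Nsun2 makes several tRNAs harder to cut, and Argonaute proteins can carry some of the fragments much as they carry miRNAs.

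The sequences that define the knockdown and the Ang locus are shown first. The ASO and the target stretch come from the study's oligonucleotide list, with the RNA target written with T, and the capitals mark the bases of the target that pair with the ASO.
αGlu ASO: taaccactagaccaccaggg
targeted 5′ end of tRNA-Glu-CTC: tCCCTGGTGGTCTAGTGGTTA
The paired stretch spans 20 of the 21 target bases. It was found in full in no annotated transcript of 55450 GENCODE genes, the 10 members included. That annotation does not list the cytosolic tRNAs. The libraries were made from polyadenylated RNA, so they hold no measure of the targeted fragment, and the knockdown itself could not be checked in them.

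Ang (ENSMUSG00000072115) lies at chr14:51091150-51102009 on the plus strand of GRCm38, inside the span of Rnase4 (ENSMUSG00000021876, chr14:51091077-51106151), which encodes another secreted ribonuclease of the same family. Of the 1202 exon bases annotated for Ang, 219 (18.2%) are shared with Rnase4 on the same strand, and 0 of these are in the coding part of Ang. Reads from the shared bases cannot be assigned to either gene with certainty. RefSeq gives Ang the same start as 1 of the 2 start sites of Rnase4, so the 250 bases before it (GRCm38.p6, chr14:51090827-51091076, plus strand) are a promoter window of both genes. The capitals mark a stretch of 15 bases that stands at 2 adjoining places in it and serves only as a landmark.
Ang and Rnase4 promoter window: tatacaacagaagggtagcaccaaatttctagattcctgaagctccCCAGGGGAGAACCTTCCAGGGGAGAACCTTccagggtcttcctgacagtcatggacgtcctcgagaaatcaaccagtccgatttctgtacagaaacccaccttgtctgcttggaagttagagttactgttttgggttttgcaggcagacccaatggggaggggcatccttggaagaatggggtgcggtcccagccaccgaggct
On both strands, the window held 0 matches to the direct repeat of AGGTCA with 1 base between, which PPAR factors bind and which stands in 0.0335% of 32851 mouse promoter windows of this length. It held 0 matches to the core CCACG of sites for XBP1 and ATF6, found in 28.3% of windows. It also held 0 matches to TATAAA, the site for the TATA-binding protein, found in 12.4%. None of the 3 motifs contains another, and their absence says nothing about the factors.

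The libraries held 18214719 to 35001979 counts on genes, with a median of 26701201.5. S1, a Ctr BSA library, had the lowest total and a TMM scaling factor of 0.853. It also held the lowest scaled level of Dicer1, Ago2, Ago3, Ago4 and Trmt10c in its group and the highest Elac2 level of the 24, and values without S1 are given where a call turned on it. S23, a Ctr PA library, had the highest share of mitochondrial counts of the 24 (8.83%, with a median of 4.72% over all) and the fewest genes with a count (17367), and calls that appeared without it are named below. Raw counts ran from 162 for Ago4 in the poorest library to 8892 for Dicer1 in the richest, so counting error weighed most on Ago4. Of 10 genes of fatty-acid use that PA is known to induce (such as Cpt1a and Pdk4), 9 rose with PA in both Ctr and αGlu cells. Of all tested genes, 15.5% rose in Ctr and 14.4% in αGlu cells. The 10 genes were chosen with earlier results of these data known, so they are no independent check of the treatment.

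Per transcript length, in the TPM values deposited by the authors, Rnh1 was the most abundant member, at a median level of 105 TPM over the 24 libraries. Ang followed with a median level of 65.5 TPM and Ago2 with 45.9 TPM. The median over all tested genes was 11.1 TPM. Dicer1 (35.8 TPM), Nsun2 (32.6 TPM) and Ago1 (29.9 TPM) came next. Trmt10c (23.1 TPM) and Elac2 (22.6 TPM) lay close together. Ago3 (13.8 TPM) and Ago4 (5.24 TPM) closed the list. Rnh1 stood above Ang, Ago2 above Dicer1, Ago1 above Trmt10c, Elac2 above Ago3 and Ago3 above Ago4 in 24 of 24 libraries, and Nsun2 above Ago1 in 22. The other neighbours were less well separated, since Dicer1 exceeded Nsun2 in 15 of 24 libraries and Trmt10c exceeded Elac2 in 17. The place of Ang moved with the treatment, as Ang exceeded Ago2 in 6 of the 12 BSA libraries and in 12 of the 12 PA libraries.

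**Figure D1:**
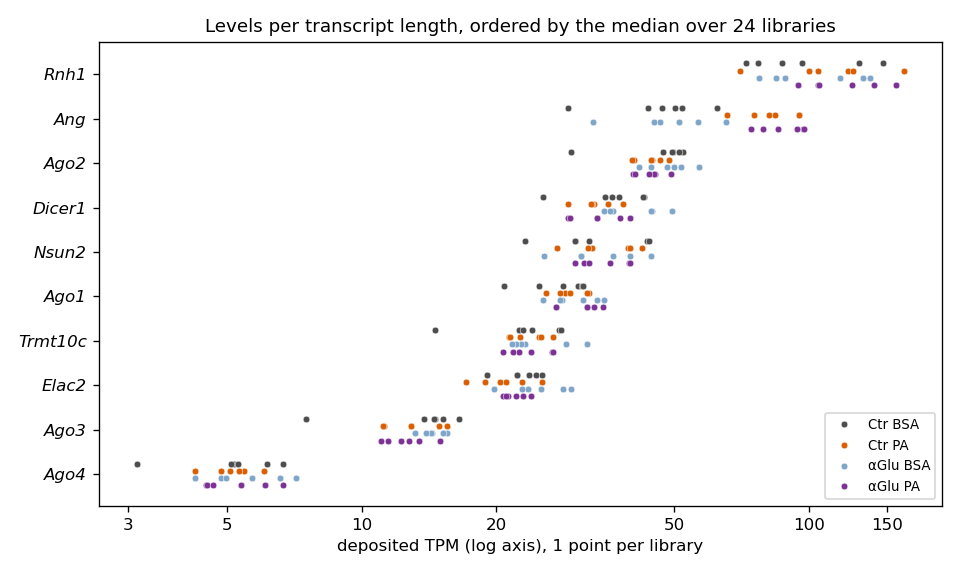
Deposited TPM (log axis) of the 10 members, with 1 point per library and 1 colour per group; genes are ordered from bottom to top by their median over the 24 libraries. Ago4 lies lowest (median 5.24 TPM) and Rnh1 highest (median 105 TPM), and the orange and purple PA points of Ang lie to the right of all of its BSA points.

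The question of the first comparison was whether PA changed the members' mRNAs. Ang rose with PA in Ctr and in αGlu cells, Dicer1 fell in both, and Elac2 passed the threshold, as a fall, in Ctr cells. The other 7 members passed in neither. By edgeR's quasi-likelihood test with Benjamini-Hochberg adjustment over all 15916 genes, 3 of 10 members passed an adjusted p of 0.05 in Ctr cells, where 30% of all tested genes did (15.5% higher and 14.5% lower). In αGlu cells 2 of 10 did, where 28.5% of all genes did (14.4% higher and 14.2% lower). These shares are close to the background, so the counts say nothing about the members as a list. No member passed a fold above 2 with an unadjusted p below 0.05, which 5.91% of genes passed in Ctr cells, 5.57% in αGlu cells and 5.75% on the average of both.

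Ang, the tRNA-cutting ribonuclease, is given in CPM, the count relative to the library total after TMM scaling. In Ctr BSA its level was lowest at 12.2, with a median of 22.4 and a highest value of 26.6 CPM. In Ctr PA the corresponding levels were 30.8, 36.2 and 39.3 CPM. All 6 Ctr PA libraries lay above all 6 Ctr BSA libraries, as was the case for 2.97% of all tested genes. In αGlu BSA the level ran from 13.4 through a median of 20.3 to 29.2 CPM. In αGlu PA it ran from 30.6 through 38.9 to 43.96 CPM, and again no PA library reached down to a BSA library, as for 4.17% of all genes. The fitted log2 fold change was 0.75 ± 0.133 (SE, adjusted p = 1.46e-04 by edgeR) in Ctr cells. The value in αGlu cells was 0.84 ± 0.133 (SE, adjusted p = 3.87e-05 by edgeR). Averaged over both ASOs it was 0.80 ± 0.0940 (SE, 95% interval 0.60 to 0.99, adjusted p = 2.42e-07 by edgeR), a 1.74-fold rise, and 240 of the 15916 tested genes (1.51%) had a log2 fold change as high or higher. In these bulk samples, more RNA per cell and more cells of an expressing type cannot be told apart.

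The rise of Ang was found within each batch. The log2 fold change averaged over both ASOs was 0.95 in batch 1 alone (adjusted p = 6.30e-04 by edgeR) and 0.64 in batch 2 alone (adjusted p = 1.58e-04). The Ctr libraries of batch 1 had a mean Ang level of 18.8 CPM (SD 6.45, n = 3) with BSA and of 34.7 CPM (SD 3.91) with PA. Those of batch 2 had 23.8 CPM (SD 2.48) and 36.1 CPM (SD 4.31). The difference between the PA responses of both batches was −0.32 ± 0.178 (log2, SE, unadjusted p = 0.0833, adjusted p = 0.857 by edgeR), so a smaller response in batch 2 was not shown. Over each of the 24 omissions of 1 library the averaged log2 fold change stayed between 0.74 and 0.85.

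**Figure D2:**
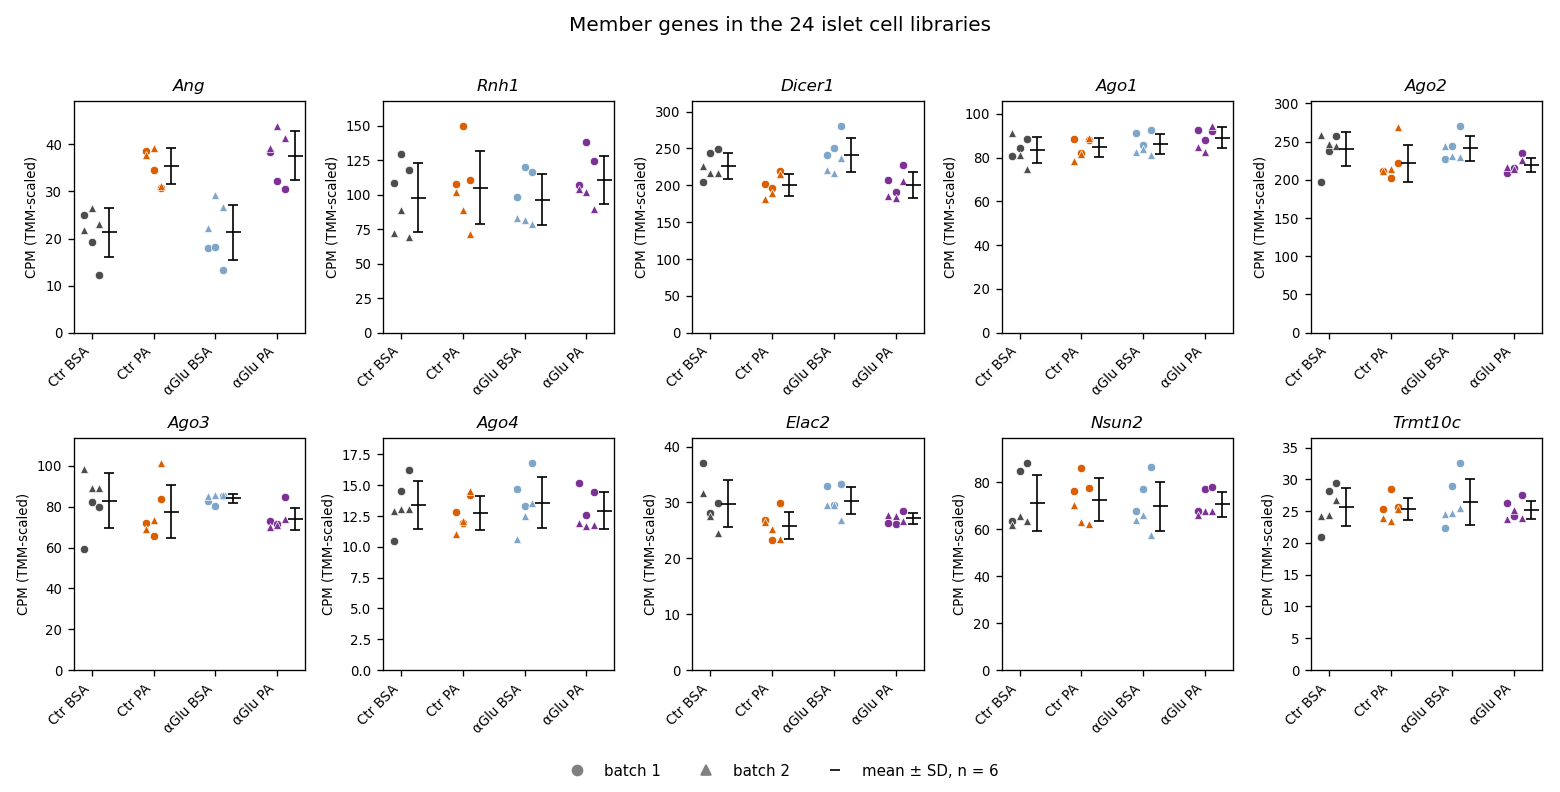
TMM-scaled CPM of each member in every library, by group, with circles for batch 1, triangles for batch 2 and the mean ± SD of 6 libraries beside each group; each panel starts at 0 and has its own scale. All PA libraries of Ang (30.6 to 43.96 CPM) lie above all BSA libraries (12.2 to 29.2 CPM), while the groups of the other 9 genes overlap.

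Rnase4, the neighbour that shares a start and exon bases with Ang, moved in the same direction. Its level ran from 127 through a median of 202 to 216 CPM in Ctr BSA and from 330 through 371 to 402 CPM in Ctr PA, without overlap. The log2 fold change was 1.00 ± 0.0937 in Ctr cells (SE, adjusted p = 4.28e-08 by edgeR). For αGlu cells the value was 0.95 ± 0.0936 (SE, adjusted p = 9.03e-08 by edgeR). Both genes rose, and per transcript length Rnase4 was the more abundant, with a median of 475 TPM over the 24 libraries against 65.5 TPM for Ang. The TPM ratio of Ang to Rnase4, a measure chosen after the values were seen, averaged 0.155 in the 6 Ctr BSA libraries (SD 0.0186) and 0.132 in the Ctr PA libraries (SD 0.0141), with overlapping groups. In αGlu cells the ratio was 0.152 with BSA (SD 0.0154) and 0.142 with PA (SD 0.0130).

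How far reads from the shared exon bases enter the Ang value was not tested. Summed markers of other cell types also moved with PA. The fibroblast and stellate markers had a median summed level of 197 TPM in Ctr BSA (range 122 to 354) and 28.3 TPM in Ctr PA (range 12.01 to 57.98). The acinar markers had a median summed level of 6447 TPM in Ctr BSA (range 1045 to 45000) and 4747 TPM in Ctr PA (range 495 to 20910). With the αGlu ASO the fibroblast sum had a median of 229 TPM in BSA and 25.2 TPM in PA, and the acinar sum 7243 and 4471 TPM. Over all groups the acinar sum ran from 7924 to 45000 TPM in batch 1 and from 495 to 1548 TPM in batch 2. Each acinar median given here therefore lies in the gap between the batches. Averaged over both ASOs, 9 of 9 fibroblast markers and 11 of 11 acinar markers fell, as did 5 of 7 ductal, 5 of 11 macrophage and 3 of 10 endothelial markers. Of 10 beta-cell markers 3 rose and 3 fell, of 10 alpha, delta and PP cell markers 1 rose and 4 fell, and 0 of 9 Schwann and glia markers passed. The macrophage count was not alike under both ASOs. In Ctr cells 8 of 11 fell (median log2 fold change −2.20), and in αGlu cells 1 of 11 (median −0.39). For the difference between these responses (median 2.19), 0 of 11 passed the adjusted p, with 6 at an unadjusted p below 0.05 by edgeR. The summed macrophage level moved less. Its median was 303 TPM in Ctr BSA (range 196 to 768) and 246 TPM in Ctr PA (range 216 to 320), with overlap. In αGlu cells it was 300 TPM with BSA and 301 TPM with PA. No marker present in the table was at 0 in every library. The 10 beta-cell markers, which identify the labelled islet cells, summed to 208600 to 316100 TPM in Ctr BSA and to 204200 to 302500 TPM in Ctr PA. The part of these cell types in the rise of Ang was not tested.

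**Figure D3:**
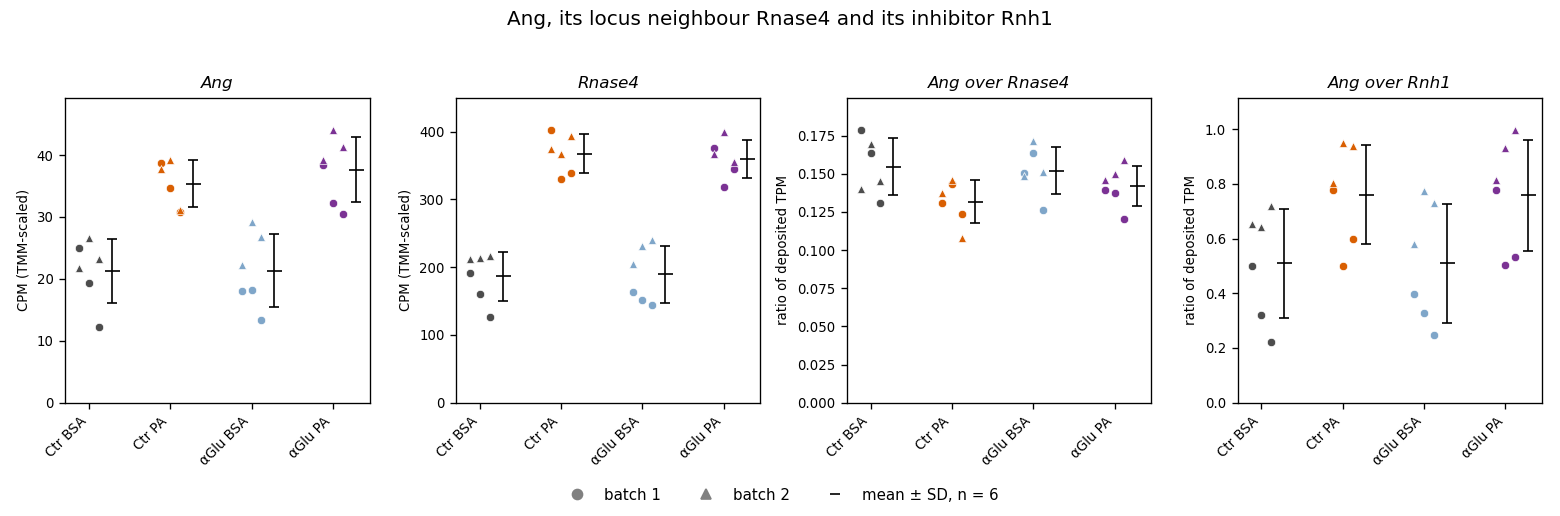
Scaled CPM of Ang and of Rnase4, and the ratios of the deposited TPM of Ang to Rnase4 and to Rnh1, in every library by group; circles are batch 1, triangles batch 2, and bars the mean ± SD of 6 libraries. Ang and Rnase4 separate PA from BSA completely, whereas the ratio of Ang to Rnase4 overlaps between them (means 0.155 and 0.132 in Ctr cells).

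Rnh1, the inhibitor of angiogenin and related ribonucleases, varied more between libraries than with PA. Its level ran from 69.4 through a median of 98.7 to 130 CPM in Ctr BSA and from 71.8 through 105 to 150 CPM in Ctr PA. The groups overlapped throughout. The log2 fold change was 0.12 ± 0.0952 in Ctr cells (SE, adjusted p = 0.379 by edgeR). With the αGlu ASO it was 0.21 ± 0.0951 (SE, adjusted p = 0.0983 by edgeR). Averaged over both ASOs Rnh1 passed with 0.16 ± 0.0673 (SE, adjusted p = 0.0493 by edgeR), at the edge of the threshold. That call was lost in 17 of the 24 omissions of 1 library and with DESeq2 (adjusted p = 0.0532). Without S1 the averaged value was 0.16 (adjusted p = 0.0652).

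The mean TPM ratio of Ang to Rnh1, also chosen after the values were seen, reached 0.510 in the 6 Ctr BSA libraries (SD 0.200) and 0.761 in the Ctr PA libraries (SD 0.181). The αGlu libraries had 0.509 with BSA (SD 0.218) and 0.758 with PA (SD 0.203). The groups overlapped, and the batches lay apart. For Ctr BSA the mean ratio was 0.348 in batch 1 (SD 0.140, n = 3) and 0.672 in batch 2 (SD 0.0415). Within batch 1 the ratio was 1.87-fold higher in Ctr PA than in Ctr BSA, and within batch 2 it was 1.33-fold higher.

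Dicer1, the RNase III enzyme that releases miRNAs from their hairpins and that can also cut some tRNAs, fell with PA. In Ctr BSA its level ran from 204 through a median of 222 to 249.4 CPM, and in Ctr PA from 181 through 199 to 219 CPM. In αGlu BSA it ran from 217 through 239 to 281 CPM, and in αGlu PA from 183 through 199 to 228 CPM. Below the lowest BSA library lay 4 of 6 PA libraries in Ctr and 5 of 6 in αGlu cells. The log2 fold change was −0.18 ± 0.0595 in Ctr cells (SE, adjusted p = 0.0277 by edgeR). In αGlu cells Dicer1 stood at −0.27 ± 0.0595 (SE, adjusted p = 0.00144 by edgeR). On the average of both ASOs Dicer1 fell to 0.858 of its BSA level (log2 fold change −0.22 ± 0.0421, SE, adjusted p = 1.37e-04 by edgeR), a call that held in 24 of 24 omissions of 1 library and within each batch (−0.25 and −0.20). The call in Ctr cells was less firm and was lost without any of the libraries S3, S5, S7, S9, S13, S15 or S17.

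**Figure D4:**
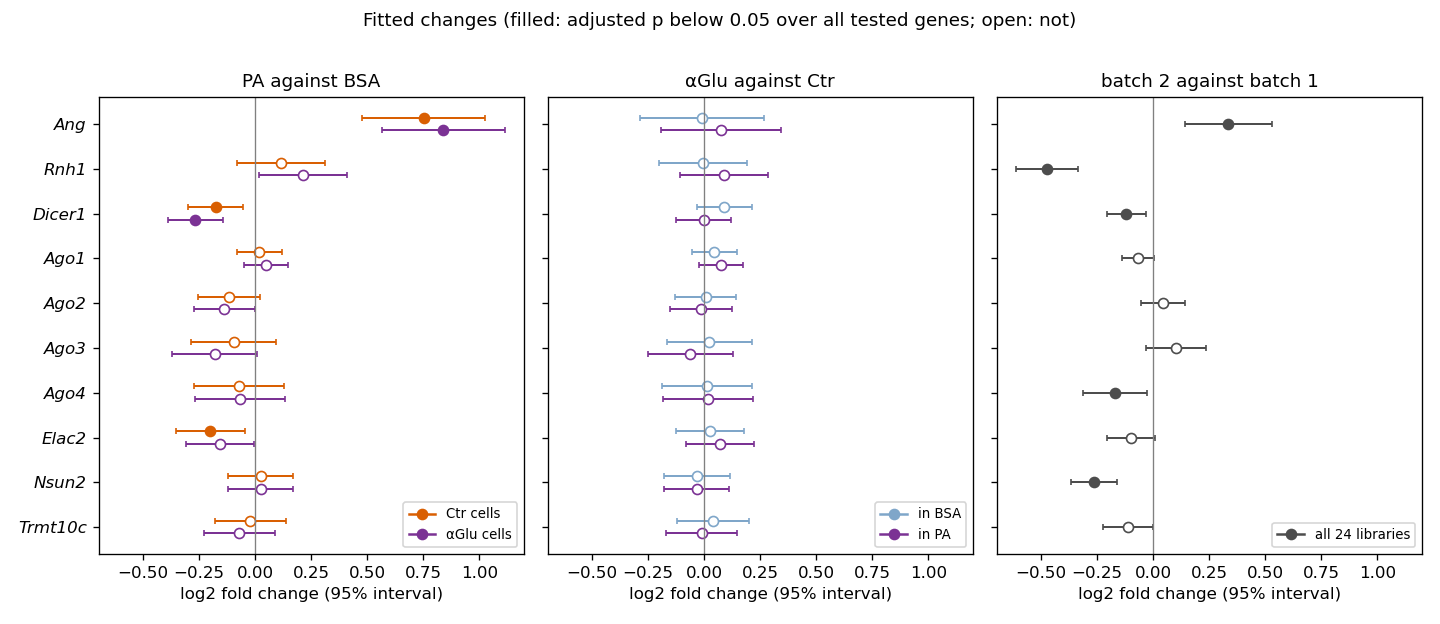
Fitted log2 fold changes of the 10 members with 95% intervals for PA against BSA (left, Ctr and αGlu cells), αGlu against Ctr (middle, in BSA and in PA) and batch 2 against batch 1 (right); filled points passed an adjusted p of 0.05 over all tested genes. Only Ang lies beyond 0.5 in the left panel (0.75 and 0.84), all intervals of the middle panel cross 0, and Rnh1 lies lowest in the right panel (−0.47).

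Among the Argonautes, Ago2 (chr15:73095844-73184935) is the member that can cut its targets, while Ago1, Ago3 and Ago4 lie side by side within 202 kb of chromosome 4 on the minus strand (chr4:126331704-126533472). Ago2 was the most abundant with a mean of 49.8% of the summed Argonaute TPM in the 6 Ctr BSA libraries (SD 1.122) and 48.2% in the Ctr PA libraries (SD 1.33). Ago1 held 30.04% (SD 2.35) and 31.9% (SD 1.86) of it in the same groups. Ago3 held 14.5% and 14.2%, and Ago4 5.60% and 5.61%. The groups overlapped in each of these shares, which were chosen after the values were seen and carry no test. The share of Ago1 in αGlu cells was 30.5% with BSA (SD 1.09) and 33.3% with PA (SD 1.07), also with overlap. The summed level was 93.3 TPM in Ctr BSA (SD 16.5, median 99.6, lowest library S1 at 60.9) and 91.7 TPM in Ctr PA (SD 7.02, median 93.4). Against Ctr BSA, the Ctr PA sum was 1.08-fold in batch 1, which holds S1, and 0.918-fold in batch 2. In αGlu cells the sum with PA was 0.942 of that with BSA. These groups overlapped too.

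None of the 4 Argonautes passed the adjusted p with PA in Ctr or αGlu cells. Ago2 ran from 198 through a median of 246 to 259 CPM in Ctr BSA and from 202 through 213 to 269 CPM in Ctr PA, with wide overlap. Its log2 fold change was −0.12 ± 0.0668 in Ctr cells (SE, adjusted p = 0.194 by edgeR). It was −0.14 ± 0.0668 (SE, adjusted p = 0.129 by edgeR) in αGlu cells. Averaged over both ASOs Ago2 passed with −0.13 ± 0.0472 (SE, adjusted p = 0.0308 by edgeR), a call lost in 9 of the 24 omissions of 1 library. Without S1, the value in Ctr cells was −0.17 (adjusted p = 0.0430), and without S23 it was −0.18 (adjusted p = 0.0258). Ago3 was at −0.14 ± 0.0651 on average (SE, adjusted p = 0.0860 by edgeR) and at −0.18 without S1 (adjusted p = 0.0126), and it also passed without S12 or without S23. Ago4 was at −0.07 ± 0.0685 (SE, adjusted p = 0.426) and Ago1, with the smallest standard error of the 10, at 0.03 ± 0.0342 (SE, adjusted p = 0.452). For Ago1 the 95% interval of the averaged log2 fold change ran from −0.04 to 0.10. In all, 5 of 10 members passed on the average of both ASOs, where 45.4% of all tested genes passed. Of these, 2 rose, where 23.4% of genes rose, and 3 fell, where 22% fell.

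Elac2 encodes the enzyme that trims the 3′ ends of nuclear and mitochondrial tRNA precursors. Its level ran from 24.6 through a median of 29.03 to 37.1 CPM in Ctr BSA and from 23.3 through 25.9 to 29.9 CPM in Ctr PA. The highest of these values was that of S1. The log2 fold change was −0.20 ± 0.0740 in Ctr cells (SE, adjusted p = 0.0433 by edgeR) and was −0.14 without S1 (adjusted p = 0.128). The αGlu cells gave −0.16 ± 0.0737 (SE, adjusted p = 0.118 by edgeR). The average of both was −0.18 ± 0.0522 (SE, adjusted p = 0.00734 by edgeR), and it was −0.25 in batch 1 alone (adjusted p = 0.0404) and −0.11 in batch 2 alone (adjusted p = 0.251).

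Nsun2, which methylates cytosines of tRNAs, and Trmt10c, which serves both in mitochondrial RNase P and in methylation of mitochondrial tRNAs, did not pass in any PA comparison. Nsun2 ran from 61.95 through a median of 64.6 to 88.1 CPM in Ctr BSA and from 62 through 73.4 to 85.9 CPM in Ctr PA, with an averaged log2 fold change of 0.02 ± 0.0498 (SE, 95% interval −0.08 to 0.13). Trmt10c ran from 20.9 through 25.6 to 29.4 CPM and from 23.4 through 25.3 to 28.5 CPM in the same groups, and its averaged log2 fold change was −0.05 ± 0.0545 (SE, 95% interval −0.16 to 0.07). Exon bases of Nsun2 overlap those of Tent4a (165 bases) and of Gm17108 (469 bases) on the opposite strand. Exons of Ago2 likewise overlap Chrac1 (219 bases), and those of Elac2 overlap Arhgap44 (31 bases). The library kit keeps the strand, but the sources do not state whether the counting used it.

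The number of called members in Ctr cells depended on single libraries. It was 3 with all libraries and 1, Ang alone, without S3, without S7, without S9, without S13 or without S17. The averaged count of 5 became 3 without S7, S9, S10, S13, S15, S19 or S20, with Ang, Dicer1 and Elac2 called each time. It reached 6 without S23.

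The comparison of αGlu with Ctr cells asked whether inhibition of the tRNA-Glu fragment altered these genes. No member passed. In BSA, 0 of 10 members and 0% of all tested genes passed an adjusted p of 0.05 by edgeR, with 0 members and 461 genes (2.9%) at an unadjusted p below 0.05. In PA, 0 of 10 members and 0% of all genes passed, with 0 members and 538 genes (3.38%) at an unadjusted p below 0.05. DESeq2 called 0 members and 8 genes in BSA, and 0 members and 30 genes in PA. The 95% intervals of the 10 log2 fold changes lay between −0.29 and 0.27 in BSA and between −0.25 and 0.34 in PA. For Ang the log2 difference was −0.01 ± 0.134 in BSA (SE, unadjusted p = 0.932 by edgeR), with medians of 22.4 CPM in Ctr and 20.3 CPM in αGlu cells. In PA it was 0.08 ± 0.130 (SE, unadjusted p = 0.565). The largest absolute values were 0.09 for Dicer1 in BSA and 0.09 for Rnh1 in PA. Averaged over both treatments the members lay between −0.03 and 0.06, with 0 of 10 passing where 0.239% of all genes passed by edgeR. There, 0 members and 3.9% of genes had an unadjusted p below 0.05, and DESeq2 called 0 members and 90 genes.

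The PA responses of both ASOs were also compared directly, in the interaction of treatment and ASO. Again 0 of 10 members and 0% of genes passed by edgeR, with 0 members and 332 genes (2.09%) at an unadjusted p below 0.05, and DESeq2 called 0 genes. For Ang the difference between the log2 responses was 0.09 ± 0.187 (SE, 95% interval −0.30 to 0.47). For Dicer1 it was −0.09 ± 0.0841 (SE, 95% interval −0.27 to 0.08). The intervals of the 10 members spanned −0.35 to 0.47. Elac2 passed in Ctr and not in αGlu cells, but the difference between them did not pass (0.04 ± 0.104, SE, unadjusted p = 0.679).

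The 2 batches, each with all 4 groups, differed in several members. In batch 2, Ang was higher by 0.33 ± 0.0937 (log2, SE, adjusted p = 0.00422 by edgeR), and 4 members were lower. Rnh1 differed by −0.47 ± 0.0674 (SE, adjusted p = 2.25e-06 by edgeR), with mean levels of Ctr BSA libraries at 119 CPM in batch 1 (SD 10.8, n = 3) and 76.8 CPM in batch 2 (SD 10.7). Nsun2 differed by −0.26 ± 0.0499 (SE, adjusted p = 9.35e-05), Dicer1 by −0.12 ± 0.0421 (SE, adjusted p = 0.0188) and Ago4 by −0.17 ± 0.0685 (SE, adjusted p = 0.0403). In total 5 of 10 members passed, where 51.5% of all genes did (26.1% higher and 25.4% lower), and 0 members but 6.38% of genes passed the rule of a fold above 2. Markers of several cell types differed between the batches as well. In batch 2, 11 of 11 acinar markers were lower (median log2 difference −4.44), and their summed level ran from 7924 to 45000 TPM in batch 1 and from 495 to 1548 TPM in batch 2. The 10 of 10 beta-cell markers were higher (median 0.54), with sums of 204200 to 250900 TPM in batch 1 and 255900 to 329000 TPM in batch 2. Lower too were 5 of 7 ductal markers (1 was higher), 6 of 10 alpha, delta and PP cell markers (1 was higher) and 5 of 10 endothelial markers. The part of these cell types in the members' batch differences was not tested. For Rnh1, Nsun2, Ago4 and Trmt10c the fitted step between batches was larger in size than any fitted effect of PA or of the ASO. The step of Trmt10c (−0.11, adjusted p = 0.0863 by edgeR) did not pass. The batch difference of the PA response passed for 0 of 10 members, where 0.0565% of all genes passed by edgeR. There, 0 members and 6.18% of genes had an unadjusted p below 0.05, and DESeq2 called 0 members. Rnase4 showed −0.39 ± 0.110 (log2, SE, unadjusted p = 0.00169, adjusted p = 0.394 by edgeR), in the same direction as Ang.

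Other genes of the same pathways were read from 5 lists, averaged over both ASOs, beside a median log2 fold change of 0.01 over all tested genes and the 45.4% of genes that passed. Of 9 tested ribonucleases (19 were listed) of the RNase A and T2 families and other tRNA-cutting enzymes, 4 rose and 2 fell (median 0.20). Ern1, which encodes the endoribonuclease IRE1 of the endoplasmic reticulum stress response, rose by 0.46 ± 0.0452 (log2, SE, adjusted p = 1.29e-08 by edgeR). Rnaset2b rose by 0.44 ± 0.0597 (SE, adjusted p = 1.94e-06), but it has a near-identical copy between which reads may be split. Rnase1, the pancreatic ribonuclease of acinar cells, had a log2 fold change of −1.25 ± 0.281 (SE, adjusted p = 7.83e-04) and fell beside the acinar markers given above. The part of acinar cells in its value was not tested.

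Of 24 genes of tRNA end processing and splicing, 4 rose and 2 fell (median 0.11). Rpp40, a protein subunit of nuclear RNase P, rose by 0.78 ± 0.0954 (log2, SE, adjusted p = 4.30e-07 by edgeR). Clp1, an RNA kinase bound to the tRNA splicing endonuclease, changed by −0.42 ± 0.0688 (SE, adjusted p = 2.73e-05). Elac1, the short relative of Elac2, rose by 0.22 ± 0.0540 (SE, adjusted p = 0.00155), opposite in sign to Elac2, and Pop4, shared by RNase P and RNase MRP, was at −0.21 ± 0.0612 (SE, adjusted p = 0.00803). Thus the subunits of RNase P named here moved in opposite directions.

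Of 56 genes of tRNA base modification, 19 rose and 6 fell (median 0.07). Trmt6 and Trmt61a, the subunits of a tRNA adenosine methyltransferase, rose by 0.26 ± 0.0286 and 0.61 ± 0.0882 (log2, SE, adjusted p = 1.05e-07 and 4.55e-06 by edgeR). Mettl1, which methylates guanosine in tRNAs, rose by 0.32 ± 0.0388 (SE, adjusted p = 3.87e-07).

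Of 31 tested genes of small RNA biogenesis and Argonaute partners, 9 rose and 9 fell (median −0.03). Xpot, which exports tRNAs from the nucleus, rose by 0.41 ± 0.0408 (log2, SE, adjusted p = 1.69e-08 by edgeR), and Ddx17, a helicase of the Drosha complex, by 0.27 ± 0.0403 (SE, adjusted p = 5.66e-06). Tnrc6c, a GW182 protein that binds Argonautes, was at −0.40 ± 0.0432 (SE, adjusted p = 7.09e-08). Ajuba, a LIM protein found with Argonautes, was at −1.34 ± 0.188 (SE, adjusted p = 2.95e-06), and fell beside the fibroblast markers given above, whose part in it was not tested.

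Of 7 genes for proteins that the study or earlier work links to 5′ tRNA fragments, a list chosen partly from the study itself, 3 rose and 0 fell (median 0.07). Hnrnpa3 rose by 0.40 ± 0.0411 (log2, SE, adjusted p = 2.95e-08 by edgeR), Msi2 by 0.23 ± 0.0499 (SE, adjusted p = 6.57e-04) and Hnrnpa2b1 by 0.09 ± 0.0369 (SE, adjusted p = 0.0408). All 3 encode RNA-binding proteins. Xbp1, whose mRNA IRE1 splices, was at 0.06 ± 0.0346 (SE, adjusted p = 0.159).

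Between αGlu and Ctr cells, 0 genes of the 5 lists passed by edgeR in BSA, in PA or in the interaction. On the average of both treatments 2 passed, and they are named after their values were seen. Pop4 was at −0.29 ± 0.0611 (log2, SE, adjusted p = 0.0322 by edgeR), and Adar, which edits adenosines in double-stranded RNA, at 0.19 ± 0.0411 (SE, adjusted p = 0.0455). In the same averaged comparison 6 of 9 Schwann and glia markers fell (median −2.73). Their summed level had a median of 36.98 TPM in Ctr BSA (range 13.55 to 99.6) and 28.2 TPM in αGlu BSA (range 11.5 to 35.05). With PA it had a median of 39.7 TPM in Ctr (range 27.8 to 72.6) and 20.1 TPM in αGlu cells (range 12.6 to 31.1). The part of these cells in the values of Pop4 and Adar was not tested.

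Which genes varied with each member from library to library was described by Pearson's r of log2 CPM after the means of group and batch had been removed, over 24 libraries and 15915 other genes. The libraries share depth and composition, and the study states that the groups of a replicate shared an animal. Differences between animals were not removed, so these values carry no test. Ang went most closely with Aga (0.863), Tm4sf4 (0.858) and Ckmt1 (0.849), and Rnase4 ranked at place 19 (0.806). Dicer1 and Ago2 varied together (0.862), as did Ago2 and Ago3 (0.840), while Ang and Ago2 varied in opposite directions (−0.794). S1, the lowest Ctr BSA library for Dicer1, Ago2 and Ago3, was kept in these values. Its part in them was not tested. Among all genes, Dicer1 went most closely with Dennd4c (0.910), Ago2 with Son (0.919), Ago3 with Birc6 (0.942), Ago4 with Usf3 (0.876) and Ago1 with Denn2b (0.785). Rnh1 went with Eif3h (0.932) and Nsun2 with Hspa9 (0.893). Elac2 went with Ccdc155 (0.871) and Trmt10c with Eif1a (0.861). Spearman's rank correlation of the same values was weaker for Ang with Aga (0.736), Rnase4 (0.663) and Ago2 (−0.664). It was also weaker for Ago2 with Dicer1 (0.809) and with Ago3 (0.771). For Rnh1 with Eif3h (0.937) and Ago3 with Birc6 (0.947) it was slightly higher.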

How the data were processed

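Gene expression was taken from the deposited table of 24 stranded mRNA libraries of mouse islet cells. The authors' tool was the QIAGEN RNA-seq Analysis Portal 5.1, and GRCm38 is the build in the submitters' processing notes. Its aligner was not given in the sources used here, nor its annotation and filters. The deposited count of reads on exons per gene was used for all tests, with empty cells read as 0, and the deposited TPM, computed by the authors, only for levels between genes, ratios and marker sums. The 48 RPKM and CPM columns were not used, and 1 line without a gene (0 counts) was left out.

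Counts were filtered by filterByExpr (minimum count 10) and scaled by TMM. A quasi-likelihood model of group and batch used all 24 libraries in edgeR 4.0.16 (R 4.3.3), and p-values were adjusted by Benjamini-Hochberg over the 15916 tested genes. DESeq2 1.42.0 was an alternative. The script was tested on simulated data. Standard errors came from the F statistic, and intervals are at 95%. Coordinates came from GENCODE M21 and promoter windows from RefSeq (GRCm38.p6).

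All 10 members are named, with up to 4 genes of smallest p of each pathway list and, for each member, the genes of highest residual correlation. A gene of the base modification list that this rule names is not reported here. Members, lists and naming rules were chosen with earlier results of these data known. The labels tie no library to an animal, so groups were compared as unpaired although the study states shared animals within a replicate. Library depth is 18214719 to 35001979 counts. Reads without molecular identifiers are not independent molecules.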

Additional observations from a re-analysis of the deposited data

Results flagged for a closer look

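In 3 of the 40 sets of a member in a group, a library lay apart from the other 5, with a gap to its neighbour above Dixon's 95% critical share of the group's range of log2 CPM. Chance alone flags about 1 in 20 sets. Ago2 was lowest in S1 of Ctr BSA, at 198 CPM with the next library at 237 CPM (gap 0.674 of the range). Ago2 was highest in S23 of Ctr PA, at 269 CPM with the next at 222 CPM (0.680 of the range). Ago3 was highest in S12 of αGlu PA, at 84.95 CPM with the next at 74.2 CPM (0.712 of the range).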

How the results depend on the processing

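No paired analysis was possible because the labels number the libraries S1 to S24 without sharing a number across groups, although the study states that the groups of a replicate shared an animal. Ang was called in all PA comparisons under each alternative that used the adjusted p, and no called value changed sign. Of the 10 members, Ang alone remained called in Ctr cells (1 in place of 3) with no filter on low counts, with no batch term, with only the 2 compared groups, and in batch 1 or batch 2 alone. In αGlu cells the count of 2 became 1 in either batch alone and 6 with only the 2 compared groups (Rnh1, Ago2, Ago3 and Elac2 added). The averaged count of 5 became 3 with no batch term and in batch 1 alone, and 2 in batch 2 alone. A single batch holds 3 libraries a group. Under the rule of a fold above 2 with an unadjusted p below 0.05, 0 members passed in these comparisons and between batches. Leaving out 1 library gave 1 to 3 called members in Ctr cells, 2 to 3 in αGlu cells, 3 to 6 on average and 4 to 6 between batches. The comparisons of αGlu with Ctr, the interaction and the batch difference of the response gave 0 members under every alternative run. Values that were not called and lay near 0 changed sign in 37 cases outside the omissions of libraries.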
